A study of Mus musculus with 5 samples.

Results

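Transcripts of 10 mTOR pathway genes were examined in pancreatic beta cells that had been made to express the cell cycle inhibitor p16INK4a. The 10 genes encode the kinase mTOR, its scaffolds RAPTOR and RICTOR, the inhibitor DEPTOR, the upstream TSC1, TSC2 and RHEB proteins, and the effectors S6K1, 4E-BP1 and 4E-BP2. They are listed by name as pathway genes, a choice made with earlier results of these data known, and each of the 10 was found among the 23951 genes of the authors' deposited table. The p16 group held 3 samples from mice carrying the transgenes Ins-rtTA, tet-GFP and tet-p16ink4a, so that their beta cells made p16INK4a together with green fluorescent protein (GFP). The GFP group held 2 samples from control mice with Ins-rtTA and tet-GFP, whose beta cells made GFP without the p16INK4a transgene. Mice of both groups received tetracycline for 10 days, and GFP-positive cells were sorted from dissociated islets for RNA-seq of total RNA. Cdkn2a, the gene of p16INK4a, stood at 34.6 FPKM with p16 and 0.657 FPKM with GFP. Both groups share the transactivator, GFP, tetracycline and the sort. By its name the transactivator is driven from an insulin promoter. The labels give no age for the mice.

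The kinase mTOR works in a pair of complexes. In mTORC1, with RAPTOR, it raises protein synthesis and restrains autophagy when growth factors and amino acids are at hand, acting through S6K1 and the 4E-BP proteins, which bind the cap-binding factor eIF4E until mTORC1 phosphorylates them. In mTORC2, with RICTOR, it phosphorylates AKT and SGK kinases. RHEB, a small GTPase of the lysosome surface, switches mTORC1 on, and the TSC1-TSC2 complex switches RHEB off. In beta cells mTORC1 is known for its part in cell size, proliferation and insulin production. The study asked about mTOR activity in beta cells with p16INK4a, and the comparison here shows how the transcripts of the pathway stood. The pathway is run by phosphorylation, which RNA levels do not measure.

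The authors give 1 value per gene and group in FPKM, fragments per kilobase of transcript, scaled to library size, and no value per sample. FPKM is scaled by transcript length, so levels of different genes can be set side by side. The spread between samples and the depth of each library are unknown, so no SD can be given, and whether a pair of values differed is read from the q-values of the authors' deposited table. A gene is called higher or lower at a q below 0.05. In a bulk sample, fewer cells with a transcript and less of it per cell cannot be told apart.

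Of the 10 genes 1 was called in the authors' deposited table, Eif4ebp1, which was higher with p16. Over all 13264 tested genes 5.42% were called, 4.32% higher and 1.1% lower. A count of 1 in 10 is too small to be set apart from that background, so what follows concerns Eif4ebp1 itself and the levels of the other 9. Those 9 had q-values between 0.234 and 0.938 in the authors' deposited table, and their log2 ratios of p16 over GFP FPKM lay between -0.20 and 0.59. The p16 value was the higher of the pair in 8 of the 10 genes, against 48.4% of all tested genes. That count was 6 once a trend of the ratios with GC content and transcript length over all genes was removed. The median log2 ratio was 0.22 over the 10 genes, or 0.04 with that trend removed, and -0.02 over all tested genes.

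**Figure D1:**
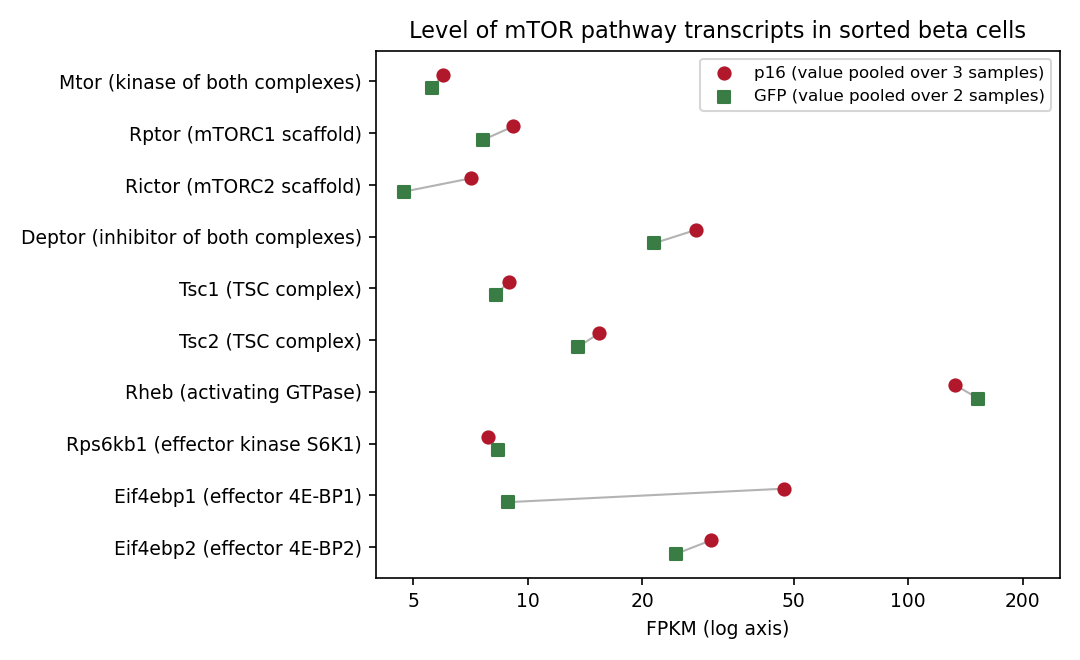
FPKM of the 10 mTOR pathway genes on a log axis, with the p16 group as red circles and the GFP group as green squares, 1 pooled value per group. Eif4ebp1 stands at 47.2 FPKM with p16 and 8.90 FPKM with GFP, while the other pairs lie close together and Rheb is the most abundant gene in both groups.

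Eif4ebp1 encodes 4E-BP1, the repressor that holds eIF4E away from the translation machinery until mTORC1 phosphorylates it. It lies on chromosome 8, from 28370799 to 28386128 in the mm9 build, and overlaps no other gene of the table. It stood at 47.2 FPKM with p16 and 8.90 FPKM with GFP. Eif4ebp1 was thus 5.31-fold higher with p16, a log2 ratio of 2.41 (authors' deposited table, q = 0.00245). Its p-value of 5e-05 there is the smallest that table holds and is shared by 271 genes. By log2 ratio it ranked at 164 among 13174 tested genes listed above 0 in both groups. Among the 8654 of these with a mean of at least 5 FPKM it ranked at 22. By level it stood at percentile 87.2 of tested genes with p16 and at percentile 48.7 with GFP. The call was kept with filters, with other thresholds and with the GC and length trend removed. The other thresholds could not have changed it, since q = 0.00245 passes each of them. With the smallest p-value and a mean of 28.1 FPKM, Eif4ebp1 could hardly have lost its call to the filters. Only removal of the trend could thus have changed the call. Under that setting calls are made from p-values, and that of Eif4ebp1 is at the floor of the authors' deposited table. Whether its call was kept therefore depended on its GC content and transcript length and not on the size of its ratio. Over all 9 alternatives the log2 ratio of Eif4ebp1 lay between 1.91 and 2.59.

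**Figure D2:**
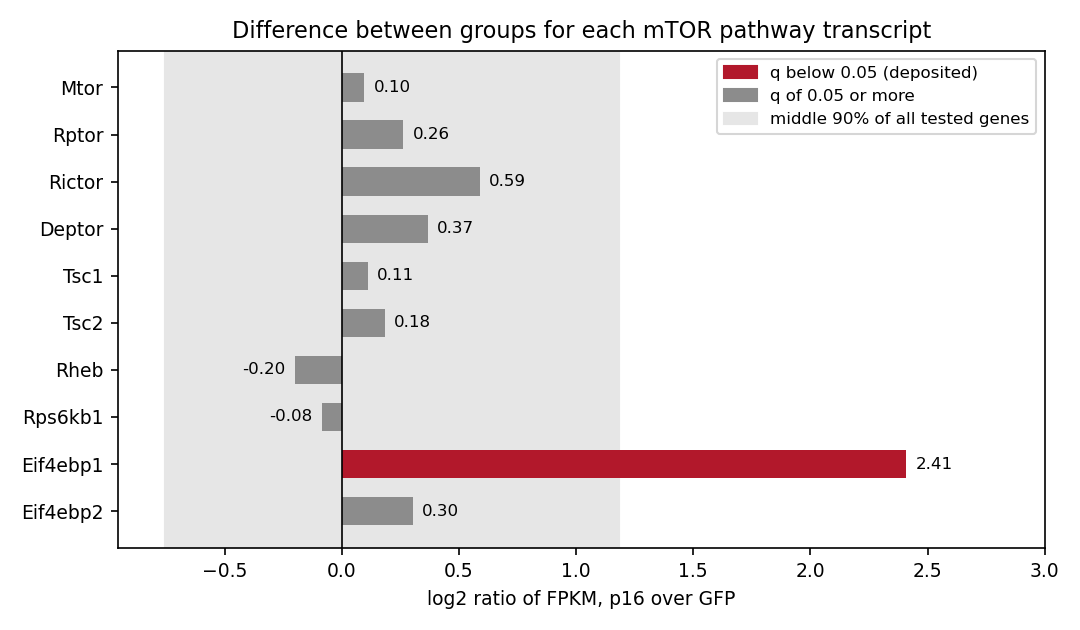
Log2 ratio of FPKM, p16 over GFP, for each of the 10 genes, with the gene called in the authors' deposited table in red, the other genes in grey and the middle 90% of all tested genes shaded. The bar of Eif4ebp1 reaches 2.41, beyond the upper edge of the shaded range at 1.18, and the other 9 bars end inside it.

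Eif4ebp2 encodes 4E-BP2, the close relative of 4E-BP1 with the same task. It lies on chromosome 10, from 60895245 to 60915417 in mm9. It had 30.3 FPKM with p16 and 24.5 FPKM with GFP, a log2 ratio of 0.30 that did not pass (authors' deposited table, q = 0.633). The third gene of the family, Eif4ebp3, had 8.39 FPKM with p16 and 5.28 FPKM with GFP and did not pass either (authors' deposited table, q = 0.324). The order of the family therefore differed between the groups: Eif4ebp1 FPKM was 1.56 times Eif4ebp2 FPKM with p16 and 0.363 times with GFP. Of the FPKM summed over the 3 genes, Eif4ebp1 made up 55.0% with p16 and 23.0% with GFP. Eif4ebp2 made up 35.2% with p16 and 63.4% with GFP. Whether the change of Eif4ebp1 differed from that of Eif4ebp2 was not tested, since the table holds no value per sample.

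Eif4e, the gene of the cap-binding factor that these proteins hold, stood at 46.0 FPKM with p16 and 62.8 FPKM with GFP (authors' deposited table, q = 0.377). The summed 4E-BP FPKM was 85.9 with p16 and 38.7 with GFP. Set over Eif4e FPKM this came to 1.87 with p16 and 0.616 with GFP, so the 4E-BP sum was above Eif4e in the p16 group and below it in the GFP group. These ratios are of transcript levels and have no error estimate.

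**Figure D3:**
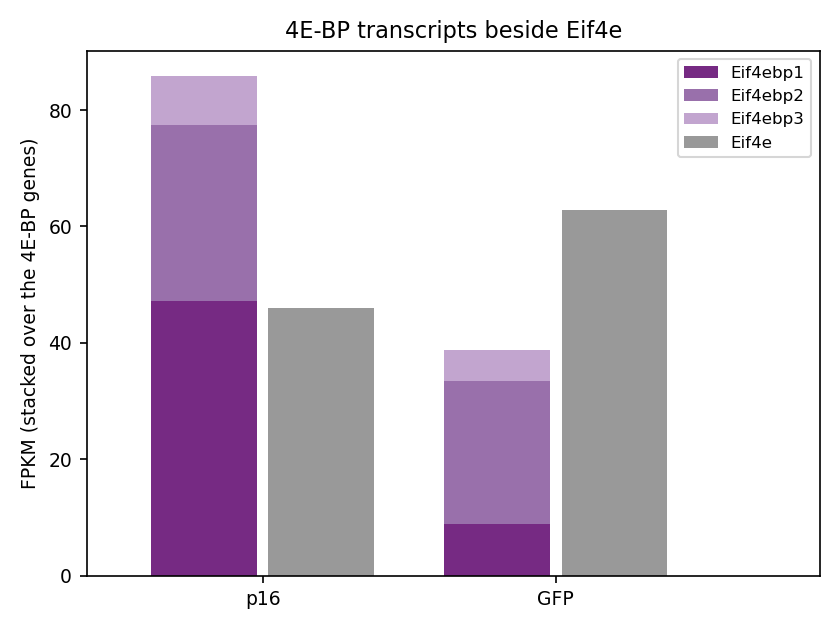
FPKM of the 3 4E-BP genes, stacked, beside that of Eif4e in the p16 group and the GFP group, 1 pooled value per group. The 4E-BP stack reaches 85.9 FPKM with p16 and 38.7 FPKM with GFP, and the Eif4ebp1 segment makes up most of the gap.

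The other effector, Rps6kb1, encodes the kinase S6K1, which phosphorylates ribosomal protein S6. It had 7.88 FPKM with p16 and 8.35 FPKM with GFP (authors' deposited table, q = 0.938). Its relative Rps6kb2, the S6K2 gene, had 10.5 FPKM with p16 and 6.89 FPKM with GFP (authors' deposited table, q = 0.306). Rps6kb2 was thus the more abundant of the pair in the p16 group, at 1.33 times Rps6kb1, and the less abundant in the GFP group, at 0.825 times. This order has no error estimate and is not established. With the GC and length trend removed, the log2 ratio of Rps6kb2 went from 0.61 to 0.28 and that of Rps6kb1 from -0.08 to 0.21. The ratios of the pair were thus close on those terms. Neither gene passed.

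Mtor, the kinase gene itself, was among the least abundant of the 10, with 5.99 FPKM in p16 cells and 5.61 FPKM in GFP cells (authors' deposited table, q = 0.938). Rptor, for the mTORC1 scaffold, had 9.16 FPKM with p16 and 7.63 FPKM with GFP (authors' deposited table, q = 0.701). Rictor, for the mTORC2 scaffold, had 7.11 FPKM with p16 and 4.73 FPKM with GFP. After Eif4ebp1 it had the largest log2 ratio of the 10 genes, 0.59. Its unadjusted p was 0.03305 and its q was 0.234 in the authors' deposited table, so Rictor did not pass, and 17.2% of all tested genes had an unadjusted p below 0.05. The FPKM ratio of Rptor over Rictor was 1.29 with p16 and 1.61 with GFP.

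Deptor encodes an inhibitor that binds mTOR in both complexes. It had 27.6 FPKM with p16 and 21.4 FPKM with GFP (authors' deposited table, q = 0.524), which was 4.61 times Mtor with p16 and 3.82 times with GFP. A near-identical transcript of another gene, Gm9920, shares the Deptor locus and had 1.91 FPKM with p16 and 0.602 FPKM with GFP, so the division of reads between them is uncertain. For the other 9 genes no transcript of another gene in the mouse annotation matched at 95% identity or more over at least 50% of the shorter transcript.

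The inhibitory TSC genes had close values in both groups and neither passed. Tsc1 had 8.91 FPKM with p16 and 8.24 FPKM with GFP (authors' deposited table, q = 0.903). Tsc2, which carries the part of the complex that makes RHEB hydrolyse GTP, had 15.4 FPKM with p16 and 13.6 FPKM with GFP (authors' deposited table, q = 0.916). The table gives Tsc2 and its neighbour Pkd1 the same locus, on chromosome 17 from 24686895 to 24769572 in mm9. Mtor likewise shares its listed locus with Angptl7 and Rptor with Rptoros, so 4 of the 10 values, Deptor included, rest on loci with more than 1 gene.

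Rheb was the most abundant of the 10 genes in both groups, with 133.0 FPKM with p16 and 152.8 FPKM with GFP (authors' deposited table, q = 0.791). It stood at percentile 96.1 of tested genes with p16 and at percentile 96.3 with GFP. Its level was 22.2 times that of Mtor with p16 and 27.3 times with GFP. The relative Rhebl1 was near 1 FPKM, at 1.13 FPKM with p16 and 1.46 FPKM with GFP. The Rheb promoter is shown because of its E-box, CACGTG, the hexamer read by factors such as TFE3, whose gene is described with the effectors. It was the only one with an E-box among the 8 of the 10 genes matched to a RefSeq promoter (GRCm38.p6). The 250 bases before each start were searched on both strands for CACGTG, which 6.02% of all 32851 promoters of that length hold, and for TGATGNAA, the composite site of C/EBP and ATF factors, which 3.45% hold and none of the 8 did. By gene, 9.92% of tested genes with a promoter hold CACGTG and 2.42% hold TGATGNAA. Eif4ebp1 and Deptor were not among the 8 and were not searched. The Rheb stretch, chr5:24842427-24842482 on the minus strand, reads 5′ to 3′ with the E-box in capitals:
Rheb: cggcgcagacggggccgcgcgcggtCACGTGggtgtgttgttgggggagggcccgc
A match in these letters is a description and not a measured binding site.

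Rheb led the order of levels in both groups, and the place of Eif4ebp1 below it differed most. In the p16 group Rheb was followed by Eif4ebp1, Eif4ebp2 and Deptor, and in the GFP group by Eif4ebp2, Deptor and Tsc2, with Eif4ebp1 in place 5. The lowest gene was Mtor with p16 and Rictor with GFP. The median over the 10 genes was 12.3 FPKM with p16 and 8.62 FPKM with GFP. Neighbours in the middle of this order, such as Rptor, Tsc1 and Rps6kb1, lie within a few FPKM of each other. Without values per sample their order has no error estimate and is not established.

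Calls over the whole table followed GC content, so the GC content of these genes is given beside their values. With tested genes parted by GC content into 5 equal bins, in the highest bin the authors' deposited table called 211 higher and 14 lower, and in the lowest bin 40 higher and 73 lower. Eif4ebp1, at 48.2% GC, lies in the middle bin, with 111 called higher and 14 lower. With the GC and length trend removed its log2 ratio was 2.59. Rictor, at 42.5% GC, lies in the lowest bin, and its ratio was 0.70 on the same terms.

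The rest of the pathway was read from 5 further lists, drawn up by role, of 115 genes, 112 of which the authors had tested. The authors' deposited table called 13 of them higher with p16 and none lower, beside 4.32% higher and 1.1% lower over all tested genes. Of the 13, 8 belonged to the list of transcripts downstream of mTORC1 and the other 5 were spread over the lists of upstream genes and effectors.

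**Figure D4:**
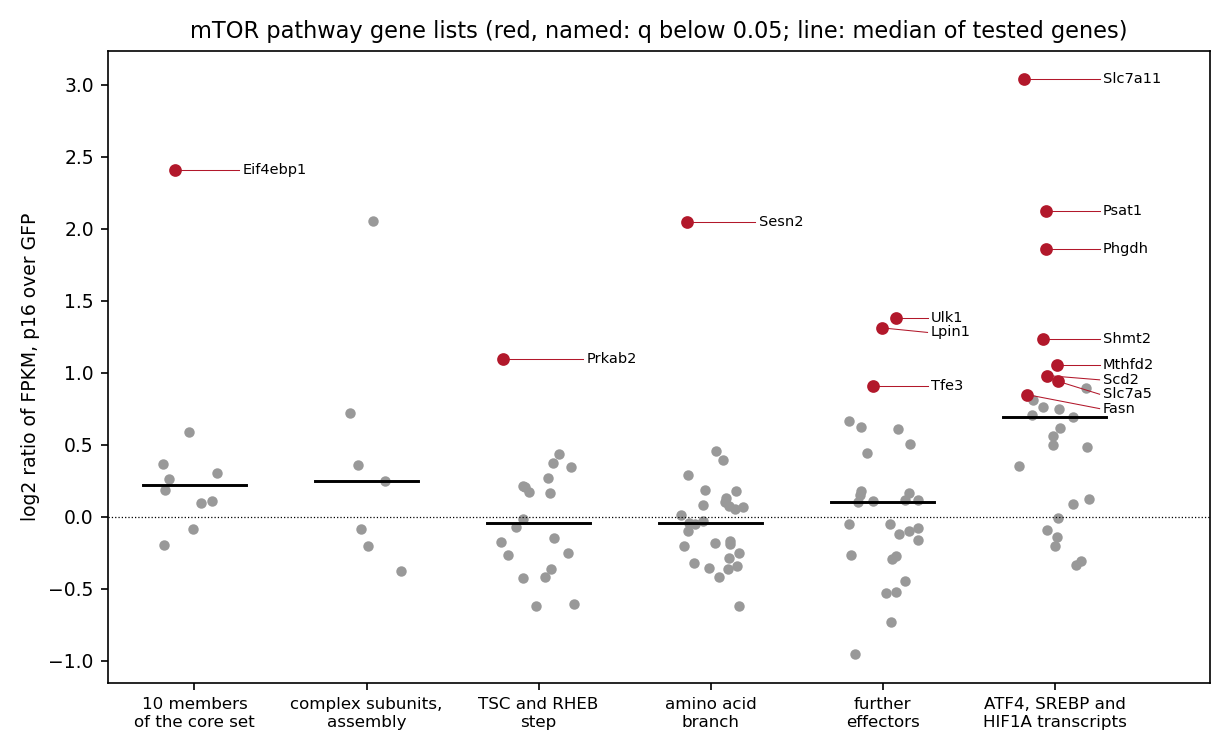
Log2 ratio of FPKM, p16 over GFP, of every tested gene in the 10-gene set and in 5 lists of the mTOR pathway, with genes called in the authors' deposited table in red and named, and the median of each list as a line. The medians lie between -0.04 and 0.25 apart from that of the ATF4, SREBP and HIF1A transcripts, at 0.70.

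Other subunits and assembly factors of the complexes held no call in the authors' deposited table, with 7 tested of 8 and 1 gene at an unadjusted p below 0.05. Akt1s1, for the mTORC1 inhibitor PRAS40, had 28.7 FPKM with p16 and 22.4 FPKM with GFP (authors' deposited table, q = 0.583). Tti2, of the complex that helps fold mTOR, had 12.3 FPKM with p16 and 7.44 FPKM with GFP (authors' deposited table, q = 0.454). Prr5, for the mTORC2 subunit PROTOR1, was named after its values were seen: it had 0.895 FPKM with p16 and 0.216 FPKM with GFP (authors' deposited table, q = 0.0690). The list's median log2 ratio was 0.25, but 0.05 with a pseudocount of 5, 0.03 with quantile normalization and -0.00064 with the GC and length trend removed.

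Of 20 further genes at the TSC and RHEB step, where growth factor and energy signals meet, 1 was higher in the authors' deposited table, Prkab2. It encodes a beta subunit of the energy sensor AMPK, which phosphorylates TSC2 and RAPTOR. Prkab2 had 18.4 FPKM with p16 and 8.63 FPKM with GFP, or 2.14-fold (authors' deposited table, q = 0.00441). The other beta subunit gene, Prkab1, had 29.8 FPKM with p16 and 22.03 FPKM with GFP and did not pass (authors' deposited table, q = 0.419). Prkab2 made up 38.2% of the beta subunit FPKM with p16 and 28.1% with GFP. The abundant Akt1, a kinase that inhibits TSC2, had 66.9 FPKM with p16 and 59.7 FPKM with GFP, and Stk11, for the AMPK-activating kinase LKB1, had 56.5 FPKM with p16 and 47.0 FPKM with GFP. Neither passed (authors' deposited table, q = 0.839 and q = 0.813). The list's median log2 ratio was -0.04.

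In the amino acid branch, which brings mTORC1 to the lysosome, 1 of 29 tested genes was higher in the authors' deposited table. This was Sesn2, for the leucine-binding inhibitor of the branch Sestrin2, a gene induced in stress by ATF4 and p53. Sesn2 had 47.3 FPKM with p16 and 11.4 FPKM with GFP, or 4.14-fold (authors' deposited table, q = 0.00245). With the GC and length trend removed, its log2 ratio of 2.05 became 1.67 and the call was lost. Calls under that setting are made from p-values and not from ratios. The p-value of Sesn2, 5e-05, is the smallest the authors' deposited table holds, so the lost call is limited by that floor. Sesn2 made up 43.3% of the FPKM of the 3 sestrin genes with p16 and 17.2% with GFP. The GTPase gene Rraga had 122.4 FPKM with p16 and 126.7 FPKM with GFP, and Sec13, of the GATOR2 complex and of vesicle coats, had 101.3 FPKM with p16 and 95.8 FPKM with GFP. The median log2 ratio of the branch was -0.04.

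Of 29 further effectors 3 were higher in the authors' deposited table. Ulk1, the kinase that starts autophagy and that mTORC1 holds back, had 27.3 FPKM with p16 and 10.5 FPKM with GFP, or 2.60-fold (authors' deposited table, q = 0.00245). Lpin1, for a phosphatidate phosphatase that mTORC1 keeps out of the nucleus, had 108.7 FPKM with p16 and 43.8 FPKM with GFP, or 2.48-fold (authors' deposited table, q = 0.00245). Tfe3, for a transcription factor of lysosome genes that mTORC1 keeps in the cytosol, had 35.3 FPKM with p16 and 18.8 FPKM with GFP, or 1.88-fold (authors' deposited table, q = 0.0257). The calls of Ulk1 and Tfe3 were lost with the GC and length trend removed, at log2 ratios of 0.94 and 0.68. The p-value of Ulk1 in the authors' deposited table is 5e-05, like that of Sesn2, so its lost call has the same limit. Ulk1 stood at 2.48 times its relative Ulk2 with p16 and 0.788 times with GFP. The median log2 ratio of this list was 0.10.

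The fifth list held 28 transcripts known to rise when mTORC1 is active, through the factors ATF4, SREBP and HIF1A. The same genes also answer amino acid shortage, sterol shortage or low oxygen without mTORC1. The authors' deposited table called 8 of 27 tested genes higher and none lower, and 21 had the higher value with p16. Psat1 and Phgdh, of serine synthesis, had 11.2 and 24.0 FPKM with p16, against 2.57 and 6.64 FPKM with GFP (authors' deposited table, q = 0.00245 for both). Shmt2 and Mthfd2, of mitochondrial one-carbon metabolism, had 12.9 and 63.4 FPKM with p16, against 5.50 and 30.6 FPKM with GFP (authors' deposited table, q = 0.00597 and q = 0.00752). Scd2, a fatty acid desaturase gene, had 219.9 FPKM with p16 and 111.4 FPKM with GFP (authors' deposited table, q = 0.0152). Slc7a5, for a leucine transporter, had 102.7 FPKM with p16 and 53.5 FPKM with GFP (authors' deposited table, q = 0.0130), a call lost with the GC and length trend removed, at a log2 ratio of 0.65 against 0.94. Under that setting the call of Fasn was lost too and those of Psph and Asns were gained, so the count stayed at 8. The list was drawn up with earlier results of these data known, so its count is no independent sign of a direction.

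The genes of the factors themselves did not pass. Atf4 had 504.0 FPKM with p16 and 580.5 FPKM with GFP, and Hif1a had 24.5 FPKM with p16 and 30.9 FPKM with GFP (authors' deposited table, q = 0.792 and q = 0.575). Srebf1 had 52.9 FPKM with p16 and 34.6 FPKM with GFP, and Srebf2 had 65.1 FPKM with p16 and 40.2 FPKM with GFP (authors' deposited table, q = 0.246 and q = 0.108). The median log2 ratio of the fifth list was 0.70, beside -0.02 over all tested genes, and 0.50 with the GC and length trend removed.

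Slc7a11, for the cystine transporter, was higher too but low, with 0.980 FPKM in p16 cells and 0.119 FPKM in GFP cells (authors' deposited table, q = 0.00245). It was named after its values were seen, because it alone of the 11 called list genes with a RefSeq promoter held TGATGNAA, in 2 copies on opposite strands. The list genes Akt2, Lamtor4, Eef2k and Asns, not called in the authors' deposited table, held TGATGNAA too, and so did 2.42% of tested genes with a promoter. The Slc7a11 stretch, chr3:50443628-50443704 of GRCm38.p6 on the minus strand, reads 5′ to 3′ with both copies in capitals:
Slc7a11: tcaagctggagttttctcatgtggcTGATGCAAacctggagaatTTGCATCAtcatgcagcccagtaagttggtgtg
A gene without a match lacks these letters in this window, and nothing follows from that about the factors.

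Cell type markers were read in the same values. The beta cell genes Ins1, Ins2 and Iapp carry a 0 in each group because they had too many fragments to quantify, and the other 7 of 10 beta cell markers summed to 3605 FPKM with p16 and 4742 FPKM with GFP. Most of that sum was G6pc2, at 2327 FPKM with p16 and 3012 FPKM with GFP, which did not pass (authors' deposited table, q = 0.611). Of the 7, 5 had an unadjusted p below 0.05, with Pdx1 and Mafa at the higher value with p16 and Slc2a2, Ucn3 and Slc30a8 at the lower. One of these passed in the authors' deposited table, Slc2a2, which was lower, at 205.2 FPKM with p16 and 401.7 FPKM with GFP. Summed FPKM of 5 delta and PP cell markers was 3998 with p16 and 1866 with GFP, and 4 of the 5 were higher in the authors' deposited table. Over 5 alpha cell markers the sum was 2770 with p16 and 2154 with GFP, with none called at q below 0.05 and 1 at an unadjusted p below 0.05. Most of that sum was Gcg, at 2263 FPKM with p16 and 1642 FPKM with GFP (authors' deposited table, q = 0.497). For the 6 duct markers the sum was 181.1 with p16 and 151.3 with GFP. Most of that sum was Krt7, at 151.5 FPKM with p16 and 134.0 FPKM with GFP, which did not pass (authors' deposited table, q = 0.814). The authors' deposited table called 2 duct markers higher, Spp1 and the low Sox9, at 0.492 FPKM with p16 and 0.122 FPKM with GFP. It called 1 lower, Krt19, at 1.79 FPKM with p16 and 5.75 FPKM with GFP (authors' deposited table, q = 0.0105). Sums of stellate and fibroblast markers were 4.56 with p16 and 0.506 with GFP, where 2 of 6 were tested and both, Col1a2 and Dcn, were higher. Immune markers summed to 3.91 with p16 and 2.36 with GFP, where 2 of 6 were tested and 1, Cd68, was higher, with the leukocyte gene Ptprc near 0, at 0.0269 FPKM with p16 and 0.00329 FPKM with GFP. Acinar markers summed to 12.9 with p16 and 13.8 with GFP, with none of 6 tested called, and endothelial markers to 3.36 with p16 and 2.87 with GFP, where 1 of 5 was tested and not called. The part of such cells in the values of Eif4ebp1 and the listed genes was not tested.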

How the data were processed

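RNA-seq of sorted beta cells covered 3 p16 and 2 GFP samples. The submitters' processing notes name TopHat2, Cuffnorm, Cuffdiff and mm9; their versions and the annotation are not stated in the sources used here. The deposited table holds 1 FPKM value per group and gene, made by the authors from pooled replicates, with the authors' p-value and q-value. Benjamini-Hochberg adjustment over the 13264 tested genes gave the deposited q-values to within 5.23e-07. Another 10679 genes were not tested, 6 had too many fragments and 2 failed. FPKM is no count and depth per sample is unknown, so no count model, interval or floor was computed. The labels do not tie each sample to its own mouse, so the authors' p-values may measure technical spread in part.

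Log2 ratios were recomputed from FPKM with no pseudocount. The 10 genes and the lists were chosen with earlier results of these data known. Genes were named by rule: the 10 genes, up to 6 called genes per list by the difference on the log2(FPKM + 1) scale, or its 2 genes of highest mean FPKM if fewer than 2 passed; relatives of a named gene and the factors of the downstream list were added for context outside the rule, chosen after values were seen, and other exceptions are marked. Starts were counted from 0 (299 of 1045 microRNA genes then had their RefSeq length, against 2 otherwise), so 1 was added. GC content and transcript length were those of the longest GENCODE M21 transcript by symbol, for 95.1% of tested genes; its build is not mm9, so it gave no coordinates. Splines with 4 degrees of freedom each were regressed out of the log2 ratios and of the authors' p-values as signed normal quantiles. Calls there use the size of quantile of the largest called p, 0.0027. The authors' p-values stop at 5e-05, which caps the quantiles, so a gene at that floor can lose its call whatever its ratio. A trial on simulated data had no such cap and called genes by adjusted p-values. It therefore does not cover the calls of genes at that floor. Near-identical transcripts were sought with BLAST 2.17.0. Alternatives covered pseudocounts, scaling, filters, GC content and thresholds. Python 3.11.15, numpy 2.4.6, pandas 2.3.3, scipy 1.17.1, patsy and matplotlib 3.10.9 were used.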

Additional observations from a re-analysis of the deposited data

How the results depend on the processing

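Pseudocounts and scalings leave the deposited q-values as they are, so calls over the lists could change in 5 of the 9 alternatives. In these the call of each of the 10 genes stayed on its side of the threshold. At a q below 0.01 or 0.1 this was fixed by their deposited q-values, 0.00245 for Eif4ebp1 and at least 0.234 for the other 9. Only the filters and the trend removal could have changed a call among the 10. For Eif4ebp1, whose p-value is the smallest in the authors' deposited table, the filters could hardly have done so. With the trend removed, whether its call was kept depended on its GC content and transcript length and not on the size of its ratio. The direction of a log2 ratio could turn in 3, centring, quantile normalization and removal of the GC and length trend. Of the 30 ratios there 6 turned, each with the trend removed, at -0.29 for Mtor, -0.17 for Rptor, -0.14 for Tsc1, -0.17 for Tsc2, 0.0058 for Rheb and 0.21 for Rps6kb1, none of them called. Under that setting the amino acid branch had 0 genes higher, and the further effectors had 1 higher and 1 lower, the insulin receptor substrate gene Irs2. Sesn2 and Ulk1 lost their calls there with p-values of 5e-05, the smallest in the authors' deposited table, which limits what the loss shows. At a q below 0.1 the further effectors had 1 lower, again Irs2, and the complex subunits had 1 higher, Prr5. At a q below 0.01 the transcripts downstream of mTORC1 had 5 higher, since fewer q-values pass the stricter threshold. With a pseudocount of 5 the gap in the Eif4ebp1 share of 4E-BP FPKM, p16 minus GFP, was 25.9 percentage points against 32.0 without one, because an added constant draws shares together. Of 60 counts of calls in the 5 settings that could change them, 54 stayed within 1.5 times their value, and 11 of 54 medians moved by over 0.1. Some of these counts were 0, which a stricter threshold cannot raise. Quantile normalization moved the median log2 ratio of all tested genes by -0.02. No paired analysis was possible because the table holds 1 pooled value per group, and for the same reason no sample could be left out. Unknown depth limits how far low values, such as those of Prr5 and Slc7a11, can be read.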
